A study of Mus musculus with 24 samples.

Results

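The genes described are ligands and receptors of the EGF receptor family, 9 of the 55471 genes in the count tables. They were chosen by name, with earlier results of these data known, and gene identifiers were matched to symbols. The ligands are *Areg*, *Ereg*, *Hbegf*, *Tgfa*, *Btc* and *Nrg1*, and the receptors are *Egfr*, *Erbb2* and *Erbb3*. All 9 passed the filter on low counts, which left 17522 genes for testing. RNA-seq was performed on 24 libraries from 3T3 mouse embryonic fibroblasts (MEFs), an immortalized fibroblast line, in 8 groups of 3 libraries. The genotypes were WT, LKB1 knockout and LKB1/CRTC2 knockout, the last as clones A1 and A2, and each was left untreated (control) or stimulated with IL-1β, an inflammatory cytokine, at 0.1 ng/mL for 6 hours. LKB1 is the kinase encoded by *Stk11*, and CRTC2 is a coactivator of the transcription factor CREB. Lkb1-/- names the LKB1 knockout MEFs here, and Lkb1-/-/Crtc2-/- the clones, which carry the LKB1 deletion as well. Each clone was grown from a single cell after transfection of Lkb1-/- MEFs with Cas9 and guides to the first exon of *Crtc2*, so that clone and genotype cannot be told apart within a clone. WT and Lkb1-/- MEFs are separate lines. The labels do not say whether the 3 libraries of a group came from separate cultures, and the p-values then measure only the spread between these libraries.

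EGF family ligands are made as membrane-anchored precursors, and metalloproteases of the ADAM family release the soluble growth factor. Amphiregulin (*Areg*) and TGF-α (*Tgfa*) bind EGFR, epiregulin (*Ereg*), HB-EGF (*Hbegf*) and betacellulin (*Btc*) bind EGFR and ERBB4, and neuregulin 1 (*Nrg1*) binds ERBB3 and ERBB4. The receptors work as dimers. ERBB2 has no known ligand and serves as a partner, ERBB3 has little kinase activity of its own, and active dimers signal through RAS and ERK.

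Between 38842901 and 48594394 read pairs were counted on genes in a library. Levels are given as CPM, the count scaled to a library's TMM-adjusted total. *Stk11* was counted at between 84.7 and 86.0 CPM in the WT groups and at between 16.8 and 22.5 CPM in the other groups (group means), and *Crtc2* between 81.1 and 82.7 CPM in Lkb1-/- MEFs and between 42.9 and 53.0 CPM in the clones. Both genes thus kept reads where they were targeted, as the counts do not show the targeted allele. In the WT libraries the Y-linked genes *Ddx3y*, *Eif2s3y*, *Kdm5d* and *Uty*, chosen after their values were seen, lay between 0 and 0.0987 CPM, and in the other libraries between 39.9 and 112.4 CPM. The WT line therefore differs from the other lines in more than *Stk11*, and genotype and line cannot be told apart in any comparison with WT. Of 7 fibroblast markers 6 passed the filter, with summed levels between 3427 and 7580 CPM in a library, most of it from *Vim* and *Col1a1*. *Pdgfra* had a mean of 4.58 CPM in untreated WT against 341.8 CPM in untreated Lkb1-/- MEFs, *Col1a2* one of 780.1 against 63.0 CPM, and *Thy1* was at 0 in every WT library and had at most 3 reads in any other. The 6 epithelial markers together stayed at or under 0.499 CPM in each library, and the 2 endothelial markers, neither of which passed, at or under 0.200 CPM. Of 3 haematopoietic markers *Cd68* passed, with group means from 3.28 CPM in untreated WT MEFs to 6.105 CPM in stimulated clone A2, while *Ptprc* and *Adgre1* had at most 1 read in any library. The part of these markers in the results was not tested. Replicate 1 stood apart in all 8 groups. Its counts differed from those of replicates 2 and 3 by 37.7 to 106 times the sampling noise (chi-square per degree of freedom), while replicates 2 and 3 differed by 7.41 to 18.6 times. Counts of called genes are therefore also given for replicates 2 and 3 alone (16 libraries), a fit chosen after seeing the data.

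*Areg*, *Ereg* and *Btc* are neighbours on chromosome 5 of GRCm38. *Ereg* lies from 91074622 to 91093646 on the plus strand, *Areg* from 91139599 to 91148432 on the plus strand and *Btc* from 91357261 to 91402994 on the minus strand. *Tgfa* lies on chromosome 6 (86195223 to 86275719), *Nrg1* on chromosome 8 (31814551 to 32884029), *Erbb3* on chromosome 10 (128567523 to 128589652) and *Egfr* (16752203 to 16918158) and *Erbb2* (98412470 to 98437716) on chromosome 11. Each is annotated as protein coding. The 250 bases before the RefSeq start (GRCm38.p6) were read for 5 of the 9 genes, *Areg*, *Tgfa*, *Btc*, *Egfr* and *Erbb2*. The promoters of *Areg* and *Btc* are shown because these genes rose in Lkb1-/- MEFs and because CREB, the partner of CRTC2, binds the cAMP response element (CRE). The *Areg* window is chr5:91139349-91139598 on the plus strand and the *Btc* window chr5:91402995-91403244 on the minus strand, each printed 5′ to 3′ along the gene's strand with matches to the full CRE or its half-site in capitals.
Areg: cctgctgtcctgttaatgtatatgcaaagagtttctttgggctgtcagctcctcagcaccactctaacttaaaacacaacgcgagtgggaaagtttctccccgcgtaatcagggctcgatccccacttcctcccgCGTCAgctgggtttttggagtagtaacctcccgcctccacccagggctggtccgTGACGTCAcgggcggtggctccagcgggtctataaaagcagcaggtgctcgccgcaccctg
Btc: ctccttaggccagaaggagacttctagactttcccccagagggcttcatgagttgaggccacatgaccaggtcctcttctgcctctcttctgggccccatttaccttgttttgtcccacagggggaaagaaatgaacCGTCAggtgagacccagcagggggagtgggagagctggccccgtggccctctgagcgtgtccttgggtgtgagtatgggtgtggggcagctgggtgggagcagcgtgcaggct

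Both strands were searched for the full CRE (TGACGTCA), its half-site (TGACG, which reads CGTCA on the other strand), the AP-1 motif (TGANTCA) and the NF-κB consensus. *Areg* holds 1 full CRE that begins 61 bases before the start, and the half-sites at 61 and 58 bases lie within it. A further half-site stands 115 bases before the start of *Areg*. *Btc* holds 1 half-site at 113 bases and *Erbb2* 1 at 171 bases. *Tgfa* and *Egfr* hold neither, and none of the 5 windows holds the AP-1 motif or the NF-κB consensus. Of 32851 promoter windows of the same length, 1.55% hold the full CRE, 17.8% a half-site, 6.75% the AP-1 motif and 3.9% the NF-κB consensus. A match describes letters in the window and is no evidence of binding.

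The comparison of Lkb1-/- with WT MEFs addressed what the loss of LKB1 changes at rest and under IL-1β. In both treatments 7 of the 9 genes differed at an FDR under 0.05 in edgeR's quasi-likelihood test (FDR being the Benjamini-Hochberg adjusted p), where 55.9% of all genes tested differed untreated and 57.4% after IL-1β. *Areg*, *Ereg*, *Btc* and *Nrg1* were higher in Lkb1-/- MEFs, and *Hbegf*, *Erbb2* and *Erbb3* were lower. *Tgfa* and *Egfr* were called in neither treatment. The median log2 fold change of the 9 genes was 0.15 untreated and 0.06 after IL-1β, against 0.04 and 0.03 over all genes. In the fit on replicates 2 and 3 alone 8 genes differed in each treatment, where 59.1% and 60.2% of all genes did, and *Egfr* was the gene added. *Btc* did not reach the level of the filter (0.236 CPM) in any WT library and passed through the other genotypes, so its direction against WT MEFs was fixed by the filter, and without it 6 of 8 genes differed in each treatment. In bulk RNA, fewer cells of a type and less RNA per cell cannot be told apart.

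Each clone was compared with Lkb1-/- MEFs to ask what the loss of CRTC2 changes in LKB1-deficient cells. Both clones were set against the same Lkb1-/- libraries, so their differences from Lkb1-/- MEFs are not independent of each other. In clone A1 7 of the 9 genes differed untreated and 6 after IL-1β, where 35.3% and 36.7% of all genes were called. In clone A2 5 genes differed untreated and 4 after IL-1β, where 32.3% and 32.8% of all genes were called. *Areg* and *Ereg* were lower than in Lkb1-/- MEFs in both clones and both treatments, and they are the genes of the 9 with that pattern. The count for untreated clone A2 fell to 3 without clone A2 untreated replicate 2, when *Egfr* (edgeR FDR = 0.053) and *Erbb2* (edgeR FDR = 0.097) were no longer called. With replicate 1 of every group left out 7 genes differed in clone A1 in each treatment (40.2% and 41.7% of all genes) and 6 in clone A2 in each (39.2% and 38.7%).

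**Figure D1:**
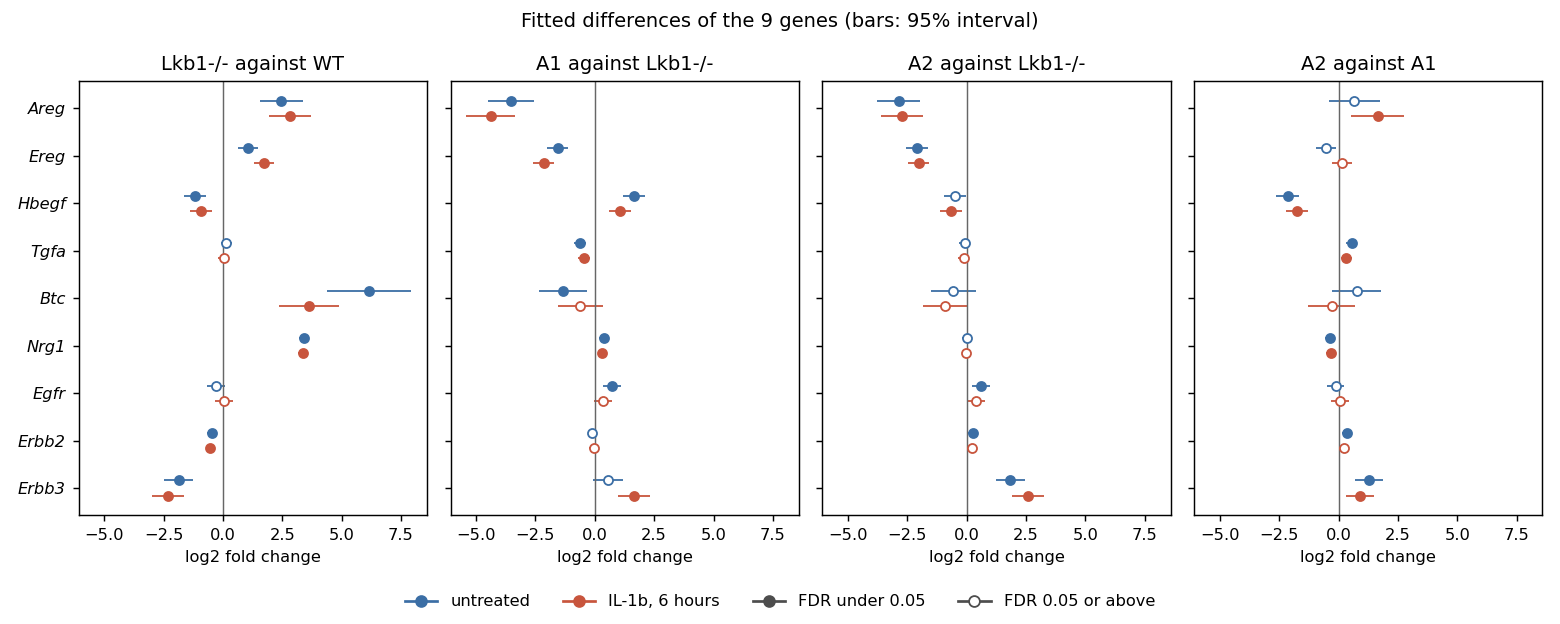
Fitted log2 fold changes (x axis) of the 9 genes (rows) in Lkb1-/- against WT MEFs, clones A1 and A2 against Lkb1-/- MEFs and clone A2 against clone A1, untreated (blue) and after IL-1β (red). Bars are 95% intervals and filled points had an edgeR FDR under 0.05. *Areg* and *Ereg* lie right of 0 in Lkb1-/- MEFs and left of 0 in both clones, whereas *Nrg1* lies at 3.40 and 3.39 in Lkb1-/- MEFs and near 0 in clone A2. The *Btc* values against WT rest on few WT counts.

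*Areg*, which encodes amphiregulin, was counted at 0.491, 0.345 and 0.939 CPM in untreated WT MEFs, compared with 4.14, 2.04 and 3.52 CPM in untreated Lkb1-/- MEFs. After IL-1β it stood at 0.592, 0.700 and 0.491 CPM in WT, compared with 5.37, 3.03 and 4.37 CPM in Lkb1-/- MEFs. Every Lkb1-/- library was above every WT library in both treatments, and the treatments overlapped within each genotype. The log2 fold change between Lkb1-/- and WT MEFs was 2.46 (SE 0.43, edgeR FDR = 4.8e-05) untreated and 2.83 (SE 0.43, edgeR FDR = 8.7e-06) after IL-1β, or 5.51-fold and 7.10-fold.

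In the clones *Areg* fell to the range of the WT libraries or under it. Clone A1 held 0.366, 0.120 and 0.345 CPM untreated and 0.172, 0.230 and 0.200 CPM after IL-1β. Clone A2 held 0.766, 0.185 and 0.352 CPM untreated and 0.839, 0.340 and 0.735 CPM after IL-1β. All 12 clone libraries lay under the lowest of the 6 Lkb1-/- libraries. Against Lkb1-/- MEFs the log2 fold change was -3.53 (SE 0.47, edgeR FDR = 5.8e-06) in untreated clone A1 and -4.38 (SE 0.49, edgeR FDR = 7.1e-07) in stimulated clone A1. In clone A2 it was -2.87 (SE 0.44, edgeR FDR = 3.9e-05) untreated and -2.74 (SE 0.43, edgeR FDR = 4.4e-05) after IL-1β. Clone A2 untreated replicate 1 was the highest of the untreated clone libraries, and without it the value in untreated clone A2 was -3.56 (edgeR FDR = 1.7e-05). Counts behind these levels were low, between 5 and 38 reads in a clone library and between 88 and 224 in a Lkb1-/- library.

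Set against WT MEFs, *Areg* differed by -1.07 (SE 0.51, edgeR FDR = 0.083) in untreated clone A1 and by -0.41 (SE 0.48, edgeR FDR = 0.48) in untreated clone A2, the former called without WT untreated replicate 2 (-1.35, edgeR FDR = 0.043). After IL-1β it was lower than WT in clone A1 by -1.56 log2 units (SE 0.54, edgeR FDR = 0.018), and this did not hold without clone A1 replicate 1 or WT replicate 2 (edgeR FDR = 0.057 in each fit), nor with replicates 2 and 3 alone (-1.46, edgeR FDR = 0.066) or with edgeR's newer quasi-likelihood method (-1.56, edgeR FDR = 0.057). In stimulated clone A2 the difference was 0.09 with a 95% interval from -0.87 to 1.05 (edgeR FDR = 0.88). In the order of the 8 group means the untreated and stimulated Lkb1-/- groups overlapped each other and stood apart from the rest, and each neighbouring pair among the 6 other groups overlapped.

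*Ereg*, which encodes epiregulin, was the one ligand of the 6 called for IL-1β. The untreated WT libraries held 65.7, 43.6 and 42.7 CPM, and the untreated Lkb1-/- libraries 120.8, 91.2 and 104.1 CPM. After IL-1β the libraries held 149.5, 132.6 and 116.2 CPM in WT and 451.7, 401.6 and 468.2 CPM in Lkb1-/- MEFs. The genotypes did not overlap in either treatment, and the treatments did not overlap in either genotype. The log2 fold change between Lkb1-/- and WT MEFs was 1.06 (SE 0.21, edgeR FDR = 0.00018) untreated and 1.73 (SE 0.21, edgeR FDR = 3.6e-07) after IL-1β.

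In clone A1 *Ereg* stood at 43.9, 33.8 and 29.2 CPM untreated and at 118.7, 87.2 and 91.9 CPM after IL-1β. In clone A2 it stood at 32.4, 18.7 and 22.6 CPM untreated and at 98.6, 89.5 and 137.4 CPM after IL-1β. Stimulated clones thus reached the range of the untreated Lkb1-/- libraries, with neighbouring groups in this range overlapping, and no clone library reached the range of the stimulated Lkb1-/- libraries. Against Lkb1-/- MEFs the log2 fold change was -1.56 (SE 0.21, edgeR FDR = 6.6e-06) untreated and -2.15 (SE 0.21, edgeR FDR = 1.2e-07) after IL-1β in clone A1, and -2.10 (SE 0.22, edgeR FDR = 2.8e-07) and -2.02 (SE 0.21, edgeR FDR = 3.3e-07) in clone A2. Untreated clone A2 was also under WT MEFs, by -1.04 log2 units (SE 0.21, edgeR FDR = 0.00021). For untreated clone A1 the difference from WT of -0.51 (edgeR FDR = 0.045) was lost without WT replicate 1 (edgeR FDR = 0.31), clone A1 replicate 2 (edgeR FDR = 0.11) or clone A1 replicate 3 (edgeR FDR = 0.18). It was also lost with upper quartile scaling (edgeR FDR = 0.12), with at least 10 counts asked of every library (edgeR FDR = 0.071) and in a fit on the groups compared alone (edgeR FDR = 0.068). After IL-1β neither clone differed from WT MEFs at this threshold, with -0.42 (95% interval -0.85 to 0.01, edgeR FDR = 0.086) in clone A1 and -0.29 (95% interval -0.72 to 0.13, edgeR FDR = 0.23) in clone A2. Without clone A1 IL-1β replicate 1 the difference in clone A1 was called (-0.57, edgeR FDR = 0.042), as it was with replicates 2 and 3 alone (-0.47, edgeR FDR = 0.017). An antisense gene, *Gm19610*, shares 141 exonic bases with *Ereg* on the other strand, and the counts used strand.

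**Figure D2:**
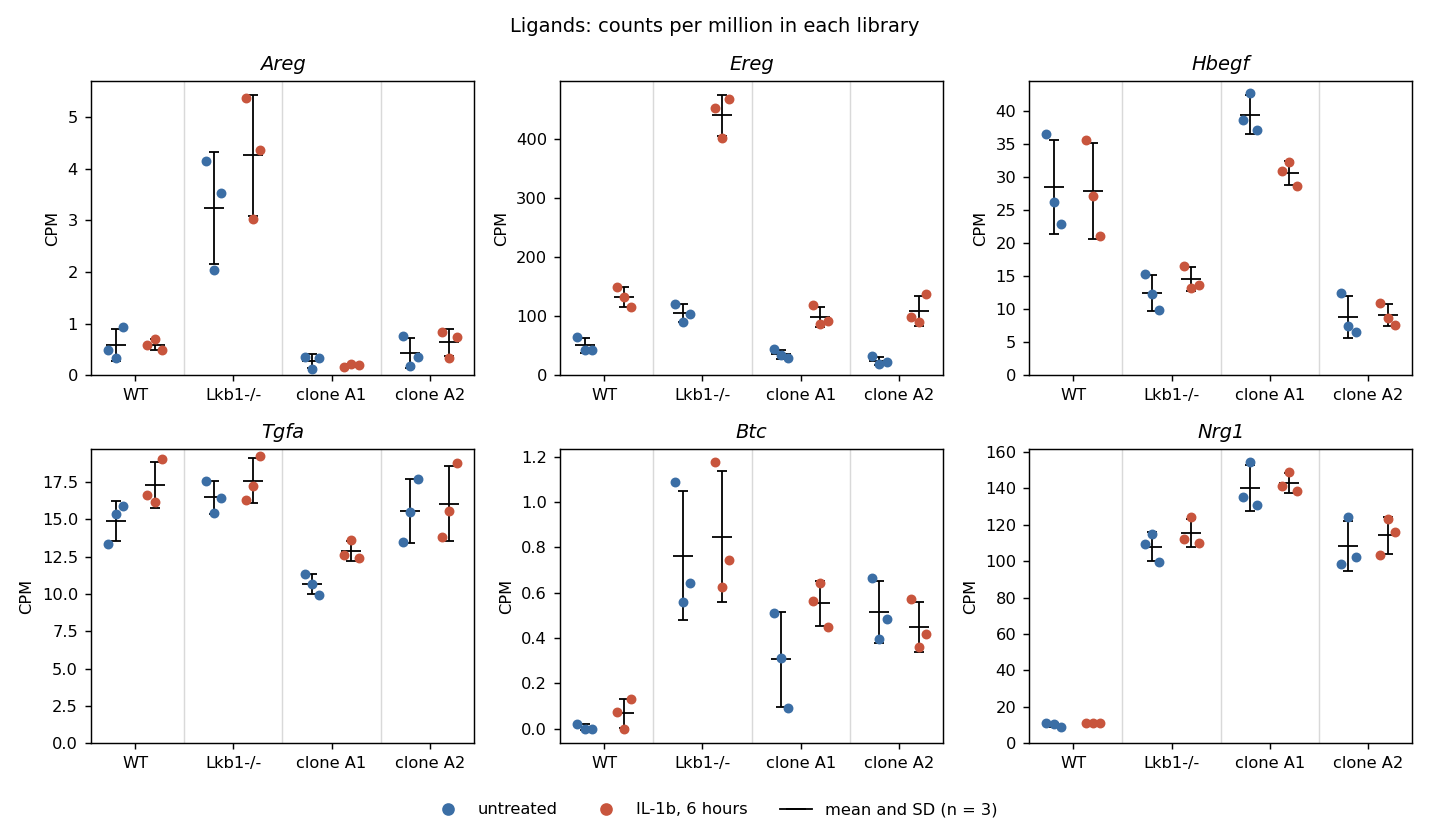
CPM (y axes, linear, each starting at or just under 0) of the 6 ligands in each of the 24 libraries, by genotype (x axis), untreated in blue and after IL-1β in red, with the mean and SD of 3 libraries. *Areg* exceeds 2 CPM in Lkb1-/- MEFs alone, *Ereg* rises with IL-1β in each genotype and is highest in stimulated Lkb1-/- MEFs, and *Nrg1* is at 9.05 to 11.2 CPM in WT MEFs and above 98 CPM in the other genotypes.

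*Btc*, which encodes betacellulin, was close to absent from WT MEFs. The untreated WT libraries held 1, 0 and 0 reads and the stimulated ones 3, 0 and 5, and the Lkb1-/- libraries held 48, 24 and 27 reads untreated and 49, 30 and 31 after IL-1β. Clone A1 had 21, 13 and 4 reads untreated and 23, 28 and 18 after IL-1β, and clone A2 had 33, 17 and 22 untreated and 26, 17 and 17 after IL-1β. No WT library reached the lowest Lkb1-/- or clone A2 library, whereas clone A1 untreated replicate 3, with 0.0919 CPM, lay under the highest stimulated WT library, with 0.129 CPM.

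With 1 read in all from untreated WT MEFs, the ratio of summed *Btc* counts was 96.9 in untreated Lkb1-/- against WT MEFs, with an exact 95% interval from 17 to 3866 that covers counting error alone. For clone A1 the ratio was 38.1 (6.44 to 1545) and for clone A2 65.9 (11.5 to 2639). The filter fixed the direction of *Btc* against WT MEFs, so its calls against WT are no support for that direction. *Btc* was called higher than in untreated WT MEFs in Lkb1-/- MEFs (edgeR FDR = 2.5e-06), clone A1 (edgeR FDR = 0.00021) and clone A2 (edgeR FDR = 1.3e-05). After IL-1β its log2 fold change against WT was 3.62 (SE 0.61, edgeR FDR = 3.1e-05) in Lkb1-/- MEFs, 3.01 (SE 0.63, edgeR FDR = 0.00036) in clone A1 and 2.72 (SE 0.64, edgeR FDR = 0.00098) in clone A2. The fitted log2 values of untreated Lkb1-/- MEFs, clone A1 and clone A2, which are no bounds, moved from 6.15, 4.83 and 5.59 to 8.04, 6.72 and 7.48 without WT untreated replicate 1, the library with the 1 read, and that of clone A1 to 4.24 without clone A1 untreated replicate 1. They were 7.69, 6.12 and 7.24 with replicates 2 and 3 alone, each still called. The 3 values after IL-1β became 3.03, 2.42 and 2.12 without WT IL-1β replicate 2, which had no read, and 4.42, 3.82 and 3.54 without WT IL-1β replicate 3, with each call kept.

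Against untreated Lkb1-/- MEFs *Btc* was lower in clone A1 by -1.32 (SE 0.49, edgeR FDR = 0.039). This call was lost without Lkb1-/- replicate 1 (-0.95, edgeR FDR = 0.21) or replicate 3 (-1.42, edgeR FDR = 0.057) and without clone A1 replicate 2 (-1.34, edgeR FDR = 0.087) or replicate 3 (-0.88, edgeR FDR = 0.18), and it was -1.91 without clone A1 replicate 1 (edgeR FDR = 0.013). It was also lost in a fit on the groups compared alone (-1.36, edgeR FDR = 0.063). The difference was -0.56 (SE 0.46, edgeR FDR = 0.39) in untreated clone A2 and -0.61 (SE 0.45, edgeR FDR = 0.33) in stimulated clone A1. In stimulated clone A2 it was -0.90 (SE 0.46, edgeR FDR = 0.15), with no overlap of the libraries, and it was called when replicate number entered as a block (-0.89, edgeR FDR = 0.046).

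*Nrg1*, which encodes neuregulin 1, separated WT MEFs from the other genotypes. WT MEFs held 11.1, 10.4 and 9.05 CPM untreated and 11.2, 10.9 and 11.04 CPM after IL-1β. Lkb1-/- MEFs held 109.3, 115.0 and 99.4 CPM untreated and 112.4, 124.1 and 109.9 CPM after IL-1β. The log2 fold change was 3.40 (SE 0.10, edgeR FDR = 9.2e-17) untreated and 3.39 (SE 0.10, edgeR FDR = 1.1e-16) after IL-1β, or 10.6-fold and 10.5-fold.

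Unlike *Areg* and *Ereg*, *Nrg1* was not lower in the clones than in Lkb1-/- MEFs. Clone A1 held 135.4, 154.3 and 130.6 CPM untreated and 141.4, 149.1 and 138.6 CPM after IL-1β, all above the Lkb1-/- libraries. Clone A2 held 98.4, 124.2 and 102.4 CPM untreated and 103.3, 123.0 and 116.1 CPM after IL-1β, which overlapped the Lkb1-/- libraries. *Nrg1* was higher in clone A1 than in Lkb1-/- MEFs by 0.38 on the log2 scale untreated (SE 0.090, edgeR FDR = 0.0025) and by 0.31 after IL-1β (SE 0.090, edgeR FDR = 0.01). In clone A2 the difference was 0.01 with a 95% interval from -0.18 to 0.19 untreated (edgeR FDR = 0.97) and -0.02 with an interval from -0.21 to 0.17 after IL-1β (edgeR FDR = 0.92). Chromosome 8, which holds *Nrg1*, had a median log2 fold change over its 918 tested genes of -0.37 in untreated clone A1 and -0.31 in untreated clone A2 against Lkb1-/- MEFs, opposite in sign to the *Nrg1* difference in clone A1.

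*Hbegf* encodes HB-EGF, which is also the diphtheria toxin receptor in man. It was counted at 36.5, 26.2 and 22.8 CPM in untreated WT MEFs, compared with 15.3, 12.3 and 9.93 CPM in untreated Lkb1-/- MEFs. After IL-1β it stood at 35.5, 27.1 and 21.1 CPM in WT and at 16.6, 13.3 and 13.7 CPM in Lkb1-/- MEFs. Every Lkb1-/- library was under every WT library, with the log2 fold change being -1.19 (SE 0.22, edgeR FDR = 0.00011) untreated and -0.94 (SE 0.22, edgeR FDR = 0.001) after IL-1β.

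The group means of the clones lay on opposite sides of Lkb1-/- MEFs in *Hbegf*, and the untreated clone A2 libraries overlapped the untreated Lkb1-/- libraries. Clone A1 held 38.5, 42.6 and 37.1 CPM untreated and 30.9, 32.3 and 28.7 CPM after IL-1β, above every Lkb1-/- library. Clone A2 held 12.5, 7.48 and 6.54 CPM untreated and 10.9, 8.69 and 7.69 CPM after IL-1β. Against Lkb1-/- MEFs *Hbegf* was higher in clone A1 by 1.66 (SE 0.23, edgeR FDR = 7.4e-06) untreated and 1.08 (SE 0.22, edgeR FDR = 0.00064) after IL-1β, to levels that were not called different from WT MEFs (edgeR FDR = 0.076 and 0.62). Without WT untreated replicate 1 the untreated difference from WT was called (0.68, edgeR FDR = 0.019), and with replicates 2 and 3 alone both were (0.70, edgeR FDR = 0.0004, and 0.34, edgeR FDR = 0.039).

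In stimulated clone A2 *Hbegf* was lower than in Lkb1-/- MEFs by -0.67 (SE 0.23, edgeR FDR = 0.027), and the call was lost without Lkb1-/- IL-1β replicate 1 (edgeR FDR = 0.1), clone A2 IL-1β replicate 2 (edgeR FDR = 0.1) or clone A2 IL-1β replicate 3 (edgeR FDR = 0.12). In untreated clone A2 the difference of -0.50 (edgeR FDR = 0.11) was called when replicate number entered as a block (-0.51, edgeR FDR = 0.0033) or without clone A2 untreated replicate 1 (-0.83, edgeR FDR = 0.008), and with replicates 2 and 3 alone (-0.67, edgeR FDR = 0.0026). Clone A2 held less *Hbegf* than WT MEFs by -1.69 (SE 0.23, edgeR FDR = 1.6e-06) untreated and -1.61 (SE 0.23, edgeR FDR = 2.8e-06) after IL-1β. Over the 485 tested genes of chromosome 18, which holds *Hbegf*, the median log2 fold change against untreated Lkb1-/- MEFs was 0.17 in clone A1 and -0.19 in clone A2, the same signs as those of *Hbegf* and smaller. Their part in the *Hbegf* values was not tested.

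*Tgfa*, which encodes TGF-α, varied least among the ligands. Its group means lay between 10.7 ± 0.684 CPM (SD, n = 3) in untreated clone A1 and 17.6 ± 1.52 CPM in stimulated Lkb1-/- MEFs. Lkb1-/- and WT MEFs overlapped, with a log2 fold change of 0.15 (95% interval -0.09 to 0.39, edgeR FDR = 0.29) untreated and 0.03 (95% interval -0.21 to 0.26, edgeR FDR = 0.87) after IL-1β. Clone A1 stood apart, lower than Lkb1-/- MEFs by -0.63 (SE 0.12, edgeR FDR = 0.00021) untreated and -0.45 (SE 0.11, edgeR FDR = 0.0038) after IL-1β, and lower than WT MEFs by -0.48 (edgeR FDR = 0.0013) and -0.42 (edgeR FDR = 0.0033). In clone A2 the difference from Lkb1-/- MEFs was -0.08 untreated (95% interval -0.32 to 0.15, edgeR FDR = 0.63) and -0.13 after IL-1β (95% interval -0.37 to 0.10, edgeR FDR = 0.41).

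*Erbb3*, the receptor of neuregulins with little kinase activity, had the fewest reads of the 3 receptors and the largest differences between Lkb1-/- and WT MEFs. WT MEFs held 2.05, 2.56 and 3.78 CPM untreated and 1.14, 1.96 and 2.72 CPM after IL-1β. Lkb1-/- MEFs held 0.770, 0.696 and 0.833 CPM untreated and 0.456, 0.374 and 0.336 CPM after IL-1β. Every Lkb1-/- library was under every WT library, and the log2 fold change was -1.86 (SE 0.29, edgeR FDR = 1.4e-05) untreated and -2.31 (SE 0.32, edgeR FDR = 2.6e-06) after IL-1β.

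Clone A1 held 1.24, 1.01 and 1.17 CPM of *Erbb3* untreated and 1.20, 1.01 and 1.50 CPM after IL-1β. Clone A2 held 1.85, 2.85 and 3.57 CPM untreated and 2.32, 2.06 and 2.62 CPM after IL-1β. No clone library was as low as a Lkb1-/- library of the same treatment, and the clone A2 libraries overlapped those of WT MEFs. Clone A1 differed from WT MEFs by -1.29 untreated (edgeR FDR = 0.00059), without overlap, and by -0.65 after IL-1β (edgeR FDR = 0.06). Against Lkb1-/- MEFs *Erbb3* was higher in clone A2 by 1.84 (SE 0.29, edgeR FDR = 6.2e-05) untreated and 2.58 (SE 0.32, edgeR FDR = 2.9e-06) after IL-1β. In clone A1 it was higher by 1.66 (SE 0.33, edgeR FDR = 0.0004) after IL-1β, and the untreated difference was 0.57 (SE 0.30, edgeR FDR = 0.16). Chromosome 10, which holds *Erbb3* and *Stk11*, had a median log2 fold change over 814 tested genes of -0.44 in untreated Lkb1-/- against WT MEFs, and of 0.39 in untreated clone A1 and 0.27 in untreated clone A2 against Lkb1-/- MEFs. The part of this shift in the *Erbb3* values was not tested.

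*Erbb2*, the ligandless partner of the other receptors, was highest in WT MEFs, at 62.9, 64.9 and 63.7 CPM untreated and 56.4, 62.0 and 62.9 CPM after IL-1β. In Lkb1-/- MEFs it stood at 43.5, 45.7 and 48.2 CPM untreated and at 37.4, 44.2 and 43.4 CPM after IL-1β. The genotypes did not overlap, with the log2 fold change being -0.48 (SE 0.092, edgeR FDR = 0.00013) untreated and -0.54 (SE 0.092, edgeR FDR = 3.7e-05) after IL-1β. Clone A1, with means of 42.6 ± 1.40 and 40.6 ± 2.34 CPM (SD, n = 3), did not differ from Lkb1-/- MEFs beyond the spread, by -0.10 (95% interval -0.30 to 0.09) untreated and -0.04 (95% interval -0.23 to 0.15) after IL-1β.

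In untreated clone A2, with 44.9, 57.9 and 59.9 CPM, *Erbb2* was higher than in Lkb1-/- MEFs by 0.24 (SE 0.092, edgeR FDR = 0.047). This call was lost without Lkb1-/- untreated replicate 1 (edgeR FDR = 0.078) or replicate 2 (edgeR FDR = 0.11) and without clone A2 untreated replicate 2 (edgeR FDR = 0.097) or replicate 3 (edgeR FDR = 0.12), and the libraries overlapped. Unstranded counts (edgeR FDR = 0.055), no filter on low counts (edgeR FDR = 0.09) and a fit on the groups compared alone (edgeR FDR = 0.11) ended it too. After IL-1β the difference was 0.20 (SE 0.092, edgeR FDR = 0.1), and it was called when replicate number entered as a block (0.20, edgeR FDR = 0.0056) or without clone A2 IL-1β replicate 1 (0.29, edgeR FDR = 0.014), and with replicates 2 and 3 alone (0.20, edgeR FDR = 0.0043). *Erbb2* was lower than in WT MEFs in both clones, by between -0.58 in untreated clone A1 (edgeR FDR = 1.4e-05) and -0.24 in untreated clone A2 (edgeR FDR = 0.031), with -0.57 (edgeR FDR = 1.7e-05) and -0.34 (edgeR FDR = 0.0033) in the stimulated clones. The call in untreated clone A2 was lost without WT replicate 1 (edgeR FDR = 0.052), WT replicate 2 (edgeR FDR = 0.078) or clone A2 replicate 1 (edgeR FDR = 0.062), and in a fit on the groups compared alone (edgeR FDR = 0.078).

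*Egfr*, the receptor of most of these ligands, had a mean of 52.2 ± 0.339 CPM in WT MEFs at rest (SD, n = 3), which was 53.8 ± 2.99 CPM after IL-1β. Lkb1-/- MEFs held 42.7 ± 3.34 CPM untreated and 55.9 ± 8.95 CPM after IL-1β, a log2 fold change of -0.29 (95% interval -0.67 to 0.09, edgeR FDR = 0.19) and 0.06 (95% interval -0.32 to 0.43, edgeR FDR = 0.82). The untreated libraries of these genotypes did not overlap. With replicates 2 and 3 alone *Egfr* was lower than WT untreated (-0.23, edgeR FDR = 0.0038) and higher after IL-1β (0.17, edgeR FDR = 0.02).

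Clone A1 held 62.4, 76.7 and 73.6 CPM of *Egfr* untreated and 59.8, 75.4 and 75.2 CPM after IL-1β. Clone A2 held 45.8, 74.0 and 74.3 CPM untreated and 49.0, 81.9 and 87.1 CPM after IL-1β. Replicate 1 was the lowest library in both treatments of both clones, and in clone A2 it lay near the Lkb1-/- libraries. Against untreated Lkb1-/- MEFs *Egfr* was higher in clone A1 by 0.73 (SE 0.18, edgeR FDR = 0.0033) and in clone A2 by 0.60 (SE 0.18, edgeR FDR = 0.015), the latter lost without clone A2 untreated replicate 2 (edgeR FDR = 0.053). After IL-1β the differences were 0.33 (edgeR FDR = 0.17) in clone A1 and 0.38 (edgeR FDR = 0.12) in clone A2, and both were called when replicate number entered as a block (0.33, edgeR FDR = 0.019, and 0.36, edgeR FDR = 0.011). Without clone A2 IL-1β replicate 1 the latter was 0.62 (edgeR FDR = 0.0033), and with replicates 2 and 3 alone both were called (0.31, edgeR FDR = 0.00069, and 0.47, edgeR FDR = 2.5e-05).

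Over the 1294 tested genes of chromosome 11, which holds *Egfr* and *Erbb2*, the median log2 fold change against untreated Lkb1-/- MEFs was 0.29 in clone A1 and 0.34 in clone A2. The *Egfr* differences exceeded these medians and those of *Erbb2* did not, and the part of the chromosome-wide shift was not tested. Against WT MEFs *Egfr* was called higher in untreated clone A1 (0.44, edgeR FDR = 0.044) and in stimulated clone A2 (0.43, edgeR FDR = 0.044). Leaving out any of 5 libraries ended each of these calls, in untreated clone A1 each WT untreated library and clone A1 replicates 2 and 3 (edgeR FDR between 0.092 and 0.13), in stimulated clone A2 each WT IL-1β library and clone A2 replicates 2 and 3 (edgeR FDR between 0.061 and 0.16). Both were lost with unstranded counts (edgeR FDR = 0.085 and 0.068), and the latter in a fit on the groups compared alone (edgeR FDR = 0.078). In the fit without replicate 1 *Egfr* was called higher than in WT MEFs in both clones and both treatments, by between 0.48 in stimulated clone A1 (edgeR FDR = 6.9e-06) and 0.64 in stimulated clone A2 (edgeR FDR = 2.6e-07).

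**Figure D3:**
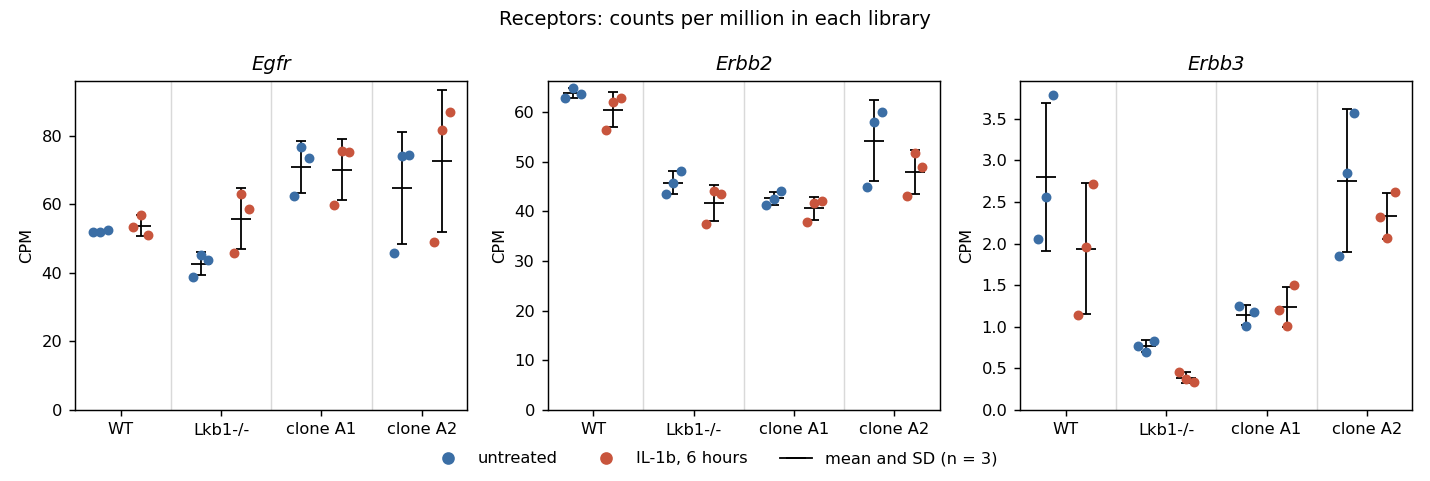
CPM (y axes, linear from 0) of *Egfr*, *Erbb2* and *Erbb3* in each library, by genotype (x axis), untreated in blue and after IL-1β in red, with the mean and SD of 3 libraries. *Erbb3* is lowest in Lkb1-/- MEFs, from 0.336 to 0.833 CPM, *Erbb2* is highest in WT MEFs, and the lowest *Egfr* point of clone A2 in each treatment is replicate 1.

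Against WT MEFs, 7 of the 9 genes were called in untreated clone A1, 5 in untreated clone A2 and 5 in each stimulated clone, where 55.4%, 60.6%, 56.9% and 60.8% of all genes were called. Of the 9, 3 were higher and 4 lower in untreated clone A1 (30.3% and 25.1% of all genes) and 2 were higher and 3 lower in untreated clone A2 (32.7% and 27.9%). After IL-1β 2 were higher and 3 lower in clone A1 (30.1% and 26.9%) and 3 were higher and 2 lower in clone A2 (32% and 28.8%). Without *Btc*, whose direction against WT was fixed by the filter, 2 of 8 were higher and 4 lower in untreated clone A1. In untreated clone A2 1 of 8 was then higher and 3 lower. After IL-1β 1 was then higher and 3 lower in clone A1, and 2 were higher and 2 lower in clone A2. When replicate 1 was left out, 8 of the 9 genes were called in clone A1 in each treatment, 6 in untreated and 5 in stimulated clone A2, where 58.1%, 59.5%, 63.4% and 63.4% of all genes were. After IL-1β *Ereg*, *Hbegf*, *Egfr* and *Erbb3* (-0.90, edgeR FDR = 0.01) were then added and *Areg* lost in clone A1. These comparisons share their WT libraries with each other and with the comparison of Lkb1-/- MEFs. The 9 genes thus fell into different patterns. *Areg* and *Ereg* were higher in Lkb1-/- than in WT MEFs and lower in both clones than in Lkb1-/- MEFs. *Nrg1* was higher than in WT MEFs in Lkb1-/- MEFs and in both clones, with log2 fold changes between 3.37 and 3.78. *Btc* was higher than in WT in all of them as well, a direction that the filter fixed. *Erbb3* was lower in Lkb1-/- MEFs and returned to the WT range in clone A2, while untreated clone A1 stayed under WT MEFs.

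The clones were also compared with each other, since they carry the same labelled genotype. At an FDR under 0.05, 5 of the 9 genes differed untreated and 5 after IL-1β, where 32.5% and 30.7% of all genes were called. Relative to clone A1, untreated clone A2 had less *Hbegf* and *Nrg1* and more *Tgfa*, *Erbb2* and *Erbb3*. After IL-1β it had less *Hbegf* and *Nrg1* and more *Areg*, *Tgfa* and *Erbb3*. The count after IL-1β fell to 2 without clone A1 IL-1β replicate 1, clone A1 IL-1β replicate 2 or clone A2 IL-1β replicate 3, when *Hbegf* and *Nrg1* were left. When replicate number entered as a block *Erbb2* was called after IL-1β too (0.24, edgeR FDR = 0.0015), as it was without clone A2 IL-1β replicate 1 (0.31, edgeR FDR = 0.01) or clone A1 IL-1β replicate 3 (0.27, edgeR FDR = 0.048). Without replicate 1 of any group 6 genes differed untreated, *Ereg* added (-0.61, edgeR FDR = 0.011), and 5 after IL-1β, where 40.7% and 38.3% of all genes did. After IL-1β *Areg* (1.28, edgeR FDR = 0.14) and *Nrg1* (-0.27, edgeR FDR = 0.058) were then lost and *Egfr* (0.17, edgeR FDR = 0.034) and *Erbb2* (0.26, edgeR FDR = 0.00066) gained.

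IL-1β was compared with no treatment within each genotype to ask which genes respond to the cytokine. *Ereg* alone of the 9 genes was called, and it rose in each genotype. Of all genes tested 2.26% were called in WT, 4.74% in Lkb1-/-, 1.99% in clone A1 and 5.68% in clone A2. The log2 fold change of *Ereg* was 1.39 (SE 0.21, edgeR FDR = 0.00032) in WT, 2.06 (SE 0.21, edgeR FDR = 1.3e-06) in Lkb1-/-, 1.48 (SE 0.21, edgeR FDR = 0.0002) in clone A1 and 2.14 (SE 0.22, edgeR FDR = 1.1e-06) in clone A2. In each genotype all 3 stimulated libraries lay above all 3 untreated ones. *Areg*, its neighbour, changed by 0.03 in WT (95% interval -0.95 to 1.00), 0.39 in Lkb1-/- (-0.39 to 1.18), 0.52 in clone A2 (-0.45 to 1.502) and -0.46 in clone A1 (-1.69 to 0.77), none of them called.

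**Figure D4:**
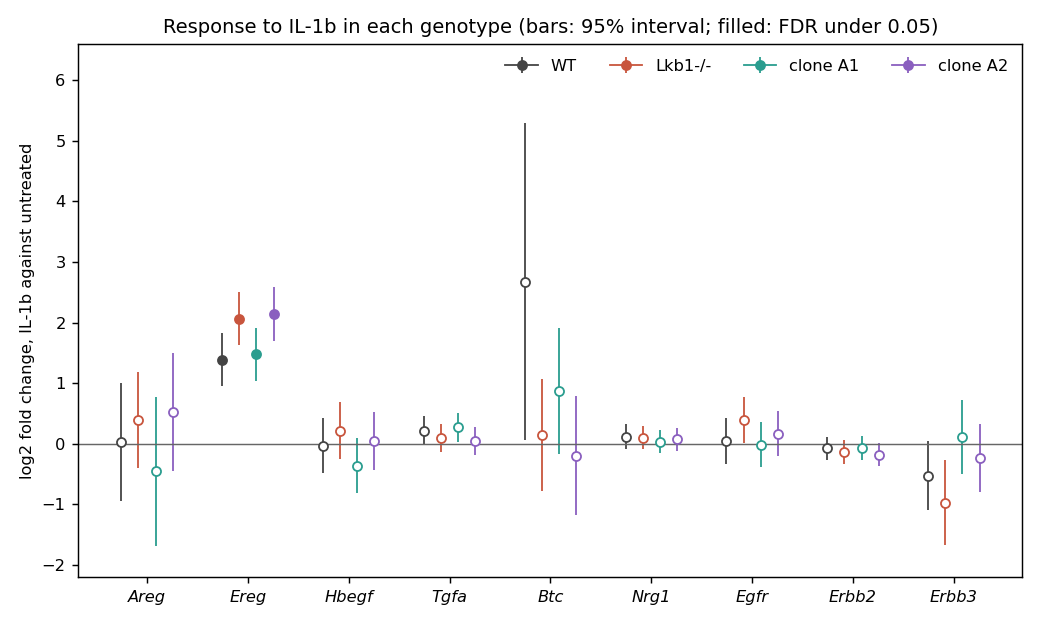
Log2 fold change of IL-1β against no treatment (y axis) for the 9 genes (x axis) in each of 4 genotypes, with 95% intervals. Filled points had an edgeR FDR under 0.05. The *Ereg* points, between 1.39 and 2.14, are the filled ones, and the wide *Btc* interval in WT MEFs rests on 1 untreated read in all.

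The other 8 genes were not called for IL-1β. *Hbegf* changed by -0.36 in clone A1 (edgeR FDR = 0.63) and *Erbb2* by -0.08 in WT (edgeR FDR = 0.86), without overlap of the libraries. *Tgfa* changed by 0.22 in WT (edgeR FDR = 0.5) and 0.27 in clone A1 (edgeR FDR = 0.37), also without overlap in either. *Egfr* changed by 0.39 in Lkb1-/- MEFs (edgeR FDR = 0.32) and *Erbb3* by -0.98 (edgeR FDR = 0.13), again without overlap, and both were called when replicate number entered as a block (0.38, edgeR FDR = 0.027, and -0.97, edgeR FDR = 0.026). *Erbb2* changed by -0.18 in clone A2 (edgeR FDR = 0.33), and it was called with that block (-0.17, edgeR FDR = 0.033) or without clone A2 untreated replicate 1 (-0.28, edgeR FDR = 0.018). *Nrg1* changed by no more than 0.12 on the log2 scale in any genotype. With replicates 2 and 3 alone *Egfr* was called in Lkb1-/- MEFs (0.45, edgeR FDR = 0.00019) and clone A2 (0.19, edgeR FDR = 0.04) and *Erbb2* in clone A2 (-0.22, edgeR FDR = 0.0059). The numbers of genes called were then 1 in WT, 2 in Lkb1-/-, 1 in clone A1 and 3 in clone A2, where 5.28%, 8.79%, 5.15% and 14.6% of all genes were.

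Whether the response to IL-1β differed between genotypes was tested as an interaction. None of the 9 genes was called by edgeR in any of 3 such differences, nor by DESeq2, and 0.245%, 0.0285% and 0% of all genes were called for Lkb1-/- minus WT (0.137% higher and 0.108% lower), clone A1 minus Lkb1-/- and clone A2 minus Lkb1-/-. At an unadjusted p under 0.05 there were 1, 1 and 0 genes of the 9, where 5.62%, 2.47% and 2.21% of all genes tested fell under it. The response of *Ereg* was larger in Lkb1-/- than in WT MEFs by 0.67 on the log2 scale (95% interval 0.07 to 1.28, edgeR FDR = 0.79), and it differed by -0.59 (95% interval -1.19 to 0.02, edgeR FDR = 1) between clone A1 and Lkb1-/- MEFs and by 0.08 (95% interval -0.53 to 0.68, edgeR FDR = 1) between clone A2 and Lkb1-/- MEFs. The *Erbb3* response differed by 1.09 (95% interval 0.16 to 2.02, edgeR FDR = 1) between clone A1 and Lkb1-/- MEFs. The higher stimulated level of *Ereg* in Lkb1-/- MEFs stood beside a higher level at rest, and a difference in response was not called in this fit. Without the filter on low counts the difference of *Ereg* was called between Lkb1-/- and WT MEFs (0.71, edgeR FDR = 5e-07) and between clone A1 and Lkb1-/- MEFs (-0.57, edgeR FDR = 0.00047), where the number of all genes called went from 43 to 347 and from 5 to 141. On replicates 2 and 3 alone it was not (0.63, edgeR FDR = 0.36, and -0.65, edgeR FDR = 0.76), and *Egfr* was called for Lkb1-/- minus WT (0.40, edgeR FDR = 0.039), where 0.842% of all genes were.

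Levels of different genes were compared as CPM per kilobase of annotated exon. On this scale *Ereg* led the ligands in both WT groups and both Lkb1-/- groups, with 12.3 ± 3.16 (SD, n = 3) in untreated WT, 32.2 ± 4.02 in stimulated WT, 25.5 ± 3.59 in untreated Lkb1-/- and 106.7 ± 8.40 in stimulated Lkb1-/- MEFs. In the untreated clones *Nrg1* led, with 13.5 ± 1.21 against 8.64 ± 1.82 for *Ereg* in clone A1 and 10.5 ± 1.34 against 5.95 ± 1.71 in clone A2, and after IL-1β *Ereg* led again. The place below the leader was held by *Hbegf* in WT MEFs (5.89 ± 1.47 untreated) and by *Nrg1* in Lkb1-/- MEFs (10.4 ± 0.764 untreated). *Areg*, a short transcript, reached 2.66 ± 0.889 in untreated Lkb1-/- MEFs, level within the spread with *Hbegf* (2.59 ± 0.555) and *Tgfa* (2.54 ± 0.168), and stood at 0.487 ± 0.255 in untreated WT MEFs. *Btc* was last of the 6 ligands in each group.

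Among the receptors, per kilobase, *Erbb2* led, *Egfr* followed and *Erbb3* was last in each of the 8 groups. In untreated WT MEFs the values were 12.3 ± 0.189 for *Erbb2*, 4.61 ± 0.0299 for *Egfr* and 0.465 ± 0.148 for *Erbb3* (SD, n = 3). In untreated Lkb1-/- MEFs they were 8.79 ± 0.452, 3.77 ± 0.295 and 0.127 ± 0.0114. *Erbb4*, the fourth receptor and a receptor of *Nrg1*, *Btc* and *Ereg*, did not pass the filter and had at most 3 reads in any library.

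Of 42 other genes of the pathway, 39 passed the filter. *Nrg3* had 0 reads in every library, and *Nrg4* and *Erbb4* also did not pass. Between untreated Lkb1-/- and WT MEFs 10 of these 39 were called higher and 16 lower, with a median log2 fold change of -0.13 against 0.04 over all genes, where 30.1% of all genes were higher and 25.8% lower. After IL-1β 13 were higher and 16 lower, where 30.2% and 27.1% of all genes were. *Spry1* and *Epgn* reached the level of the filter in fewer than 3 WT libraries, and without them 9 of 37 were higher untreated and 12 after IL-1β, with 16 lower in each. The lower genes include *Nrg2*, which passed the filter through WT MEFs alone, so that its direction was fixed by the filter. By role, in untreated MEFs, 3 of 7 genes of ligand release were lower, including *Adam10* (-0.51) and *Rhbdf1* (-1.08), and 3 of 7 adaptor genes were lower and 1 higher. All 6 genes of receptor inhibition and turnover were called, 4 higher and 2 lower.

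The called pathway genes with the largest differences were *Spry1*, *Egr1* and *Errfi1* among the higher and *Nrg2*, *Spry2* and *Spry4* among the lower. *Spry1*, a feedback inhibitor of ERK signalling, had 1, 0 and 2 reads in untreated WT and 38, 47 and 28 in untreated Lkb1-/- MEFs. *Egr1*, an immediate early gene induced by ERK, was higher by 2.15 (edgeR FDR = 0.00029), and *Errfi1*, which encodes the EGFR inhibitor MIG6, was higher by 2.10 (edgeR FDR = 2.2e-06). *Spry2* and *Spry4*, relatives of *Spry1*, went the other way, by -2.24 and -2.08, and *Nrg2*, a further neuregulin, by -3.58. *Nrg2* reached the level of the filter in 6 WT libraries and in 0 libraries of the other genotypes, so the filter fixed its direction. Of 8 ERK feedback inhibitors 2 were higher and 4 lower, and of 8 genes induced by ERK 3 were higher and 3 lower, where 30.1% of all genes were higher and 25.8% lower. *Spry1*, which reached the level of the filter in 0 WT libraries, is 1 of these 2, and the filter fixed its direction. After IL-1β 4 of the 8 genes induced by ERK were higher and 3 lower, where 30.2% and 27.1% of all genes were.

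In clone A1 9 of the 39 pathway genes were higher and 12 lower than in untreated Lkb1-/- MEFs, and in clone A2 6 were higher and 10 lower, where 18.9% and 16.4% of all genes were higher and lower in clone A1 and 17.1% and 15.1% in clone A2. After IL-1β 5 were higher and 14 lower in clone A1, where 19.4% and 17.3% of all genes were, and 4 were higher and 11 lower in clone A2, where 17.1% and 15.8% were. *Dusp5*, an ERK phosphatase gene, was lower than in Lkb1-/- MEFs by -1.14 in untreated clone A1 and -1.24 in untreated clone A2, and *Errfi1* by -0.99 and -1.02. *Spry1* was higher in untreated clone A1 by 1.51. *Adam12*, which encodes a metalloprotease, was higher in untreated clone A1 by 1.20 and lower in untreated clone A2 by -1.64. Of 8 genes induced by ERK 1 was higher and 5 were lower in stimulated clone A1, and 5 were lower and none higher in stimulated clone A2. In the untreated clones 1 was higher and 2 were lower in clone A1, and 3 were lower and none higher in clone A2.

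The responses of the pathway genes to IL-1β were few. In WT MEFs 3 of 39 rose and none fell, where 1.53% of all genes rose and 0.731% fell, namely *Ier3* (1.94), *Rhbdf2* (1.00), which encodes the iRhom2 partner of the sheddase ADAM17, and *Lrig1* (0.84), a receptor inhibitor. In Lkb1-/- MEFs 5 rose and none fell, where 2.65% of all genes rose and 2.09% fell, led by *Ier3* (1.62), *Lrig1* (1.37) and *Rhbdf2* (0.85). In clone A1 2 rose and 1 fell, where 1.2% of all genes rose and 0.788% fell, and in clone A2 6 rose and 1 fell, where 2.81% and 2.86% did. *Etv5* was the gene that fell, by -0.56 in clone A1 and -0.60 in clone A2. No pathway gene was called by edgeR for a difference in response, and 4, 3 and 0 had an unadjusted p under 0.05 in the same 3 tests, where 5.62%, 2.47% and 2.21% of all genes did.

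In a window that reaches 500 kb to either side of *Areg*, 23 genes are annotated wholly or in part and 15 passed the filter, *Areg* included and among them *Ereg*, *Btc*, the related ligand gene *Epgn* and the chemokine genes *Cxcl5*, *Ppbp*, *Cxcl3*, *Cxcl1* and *Cxcl2*. Between untreated Lkb1-/- and WT MEFs 12 of the 15 were higher and 1 lower, and after IL-1β 13 were higher and none lower. Of all genes 30.1% were higher and 25.8% lower untreated and 30.2% and 27.1% after IL-1β. Over the 1222 tested genes of chromosome 5, 33.6% were higher and 16.04% lower untreated and 33.8% and 17.8% after IL-1β. Without *Areg* 11 of 14 were higher untreated and 12 of 14 after IL-1β. Of the 15, 6 (*Btc*, *Cxcl3*, *Epgn*, *Gm19619*, *Gm22816* and *Parm1*) reached the level of the filter in fewer than 3 WT libraries and passed through other genotypes, so that their place among the higher genes is no support. Of the 9 left, 8 were higher and 1 lower untreated and 8 were higher and none lower after IL-1β. These 9 include *Areg*, on which the window was centred. They also include *Cxcl2*, which had 0 reads in untreated WT MEFs and could only be higher untreated. The ligand *Epgn*, between the chemokines and *Ereg*, was not called in either, with group means between 0.189 and 0.366 CPM.

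In clone A1 4 of the 15, *Areg* included, were lower than in untreated Lkb1-/- MEFs and 6 after IL-1β, where 16.4% and 17.3% of all genes and 11.6% and 11.8% of chromosome 5 genes were. In clone A2 6 and 8 of the 15 were lower, where 15.1% and 15.8% of all genes and 9.41% and 9.90% of chromosome 5 genes were, with none of the 15 higher in any of these comparisons. Without *Areg* the counts were 3 and 5 of 14 in clone A1 and 5 and 7 of 14 in clone A2. *Gm19619* passed the filter through Lkb1-/- MEFs, and without it 4 and 5 of 14 were lower in clone A1 and 6 and 8 in clone A2. After IL-1β the genes lower in both clones were *Cxcl3*, *Cxcl1*, *Gm19610*, *Ereg* and *Areg*. *Cxcl3* differed by -3.19 in clone A1 and -2.85 in clone A2, and *Gm19610*, antisense to *Ereg*, by -1.20 and -1.75. *Cxcl5*, the most abundant gene of the window after IL-1β, was higher in Lkb1-/- than in WT MEFs by 3.44 untreated and 3.09 after IL-1β, and against stimulated Lkb1-/- MEFs it differed by 0.29 (edgeR FDR = 0.19) in clone A1 and -0.15 (edgeR FDR = 0.53) in clone A2. With IL-1β 4 of the 15 rose in WT and 7 in Lkb1-/- MEFs, *Ereg* among them in both, and none fell, where 1.53% and 2.65% of all genes and 1.72% and 2.62% of chromosome 5 genes rose.

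**Figure D5:**
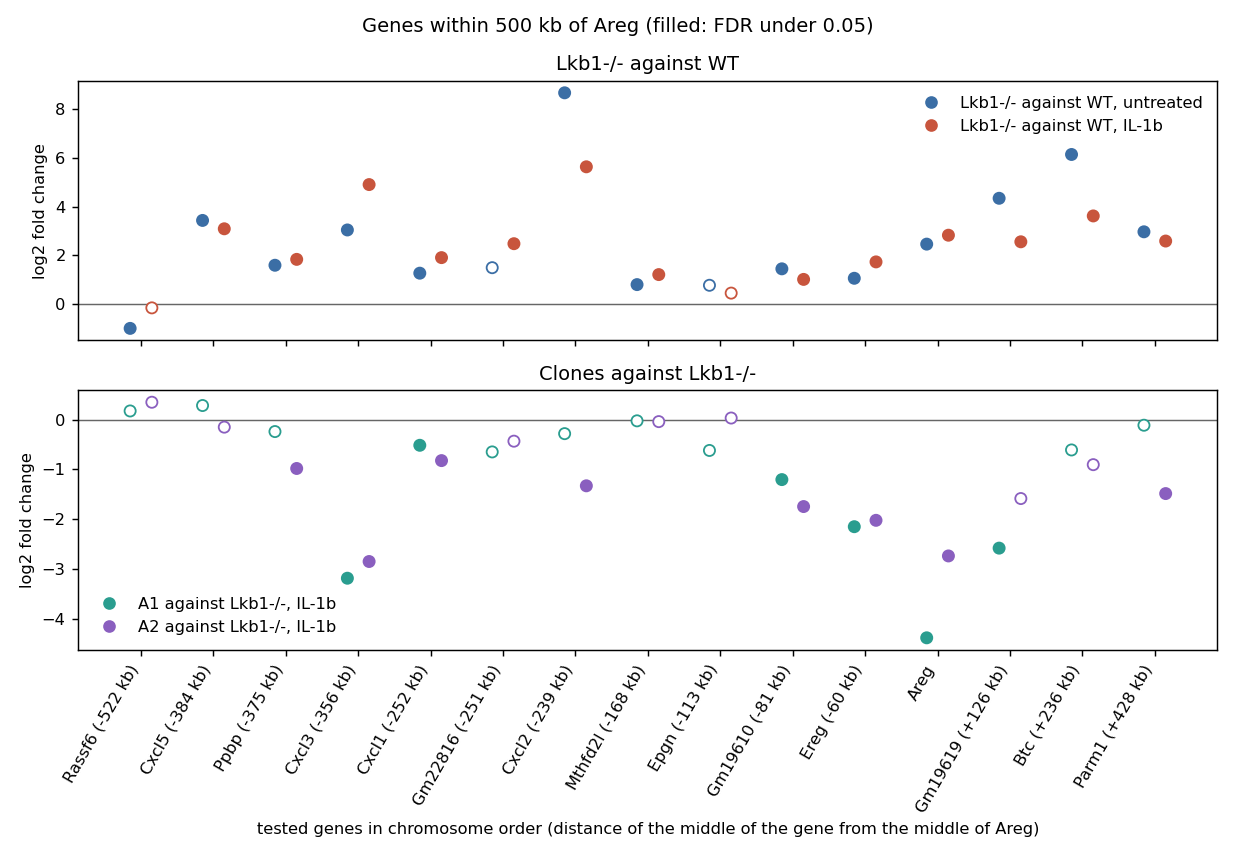
Log2 fold changes (y axes) of the 15 tested genes of the window, *Areg* included, in chromosome order (x axis, with the distance of each gene's middle from that of *Areg* in kb), in Lkb1-/- against WT MEFs (top) and in each clone against Lkb1-/- MEFs after IL-1β (bottom). Filled points had an edgeR FDR under 0.05. In the top panel 12 untreated and 13 stimulated points are filled above 0, with *Cxcl2*, *Btc*, *Gm19619* and *Cxcl3* resting on 0, 1, 1 and 3 untreated WT reads, and in the bottom panel *Areg* holds the lowest points of clone A1.

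For each of the 9 genes, the genes most alike were sought by Pearson's r of log2 CPM over the 24 libraries, which share genotypes and treatments. The search covered 9368 or 9369 genes with a mean log2 CPM above 3. The r values describe these libraries and carry no test. *Areg* was most like *Ube2t* (0.93), *Hmgb2* (0.93) and *Ddhd2* (0.93), and *Ereg* most like *A430005L14Rik* (0.94), *Fosl1* (0.92) and *Ptgs2* (0.90). *Nrg1* was most like *Fosl2* (1.00), *B4galt6* (0.99) and the Y-linked *Ddx3y* (0.99), genes that like *Nrg1* separate the WT line from the others. *Hbegf* was most like *Impdh2*, *Frmd6* and *Tpm1* (0.95 each), *Tgfa* like *Ppt2*, *Fam208a* and *Daxx* (0.89, 0.89 and 0.88) and *Btc* like *Plekhn1*, *Cry2* and *Atxn7l2* (0.92 each). Among the receptors *Egfr* was most like *Senp5*, *Mapre1* and *Stat6* (0.93, 0.92 and 0.89), *Erbb2* like *Bcorl1*, *Sdha* and *Pank3* (0.98, 0.97 and 0.97) and *Erbb3* like *Esyt1*, *Gucd1* and *Mat2b* (0.94, 0.93 and 0.93).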

How the data were processed

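RNA-seq libraries of MEFs were made by the authors from total RNA. The paper names the KAPA RNA HyperPrep kit with ribosomal RNA depletion and the labels a SMARTER mRNA kit, which is not settled. The authors trimmed reads with Trim Galore 0.6.0, aligned them with STAR 2.7.8a to GRCm38.p6 with GENCODE annotation, and deposited raw counts of read pairs per gene. Of the strand columns, the second was taken (it held 95.5% to 96.0% of stranded pairs). Lines naming no gene, 26.7% to 34.4% of pairs, were left out. Symbols and positions came from GENCODE M21, on the same build, and promoters from RefSeq. Genes were filtered with filterByExpr (minimum count 10, minimum total 15), scaled by TMM and fitted in edgeR 4.0.16 (R 4.3.3) with 1 coefficient per group over 24 libraries, after the study's model, giving 19 contrasts. The older quasi-likelihood test was used, with Benjamini-Hochberg adjustment. Intervals of ratios are exact binomial (95%) and cover counting error alone. The fitting code was tested on simulated data.

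The 9 genes and the gene lists were chosen with earlier results of these data known. Named are the 9 genes, up to 3 called pathway genes per direction with the largest changes, the 3 genes most alike each (mean log2 CPM above 3), tested genes within 500 kb of *Areg*, and *Stk11* and *Crtc2*; *Adam10* and *Rhbdf1* in Lkb1-/- against WT MEFs, *Errfi1* in clone A2 and the Y-linked genes were picked after their values were seen. Replicates of a group differed by 7.41 to 106 times the sampling noise (chi-square per degree of freedom), so none was a duplicate. Pairs with replicate 1 spanned 37.7 to 106 and replicates 2 against 3 spanned 7.41 to 18.6. Same-numbered libraries correlated in their deviations from group means (84 correlations, 0.0355 to 0.589, median 0.222). Every pair exceeded 0.1 in 10 of the 19 comparisons, and for these a blocked value is printed where it changes a call. Alternatives were unstranded counts, DESeq2 size factors, upper quartile scaling, the newer quasi-likelihood method, other filters, DESeq2 1.42.0, the replicate block, omission of each library, and fits restricted to the groups at issue. A fit without the replicate 1 libraries was chosen after seeing the data.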

Additional observations from a re-analysis of the deposited data

Results flagged for a closer look

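Clones A1 and A2 share the labelled genotype, and in 10 tests a gene differed between them at an edgeR FDR under 0.05, which is what marked these results. Of all genes 32.5% differed between the clones untreated and 30.7% after IL-1β. Relative to clone A1, *Hbegf* was lower in clone A2 by -2.15 untreated (SE 0.23, edgeR FDR = 4.7e-07) and -1.75 after IL-1β (SE 0.23, edgeR FDR = 6e-06), and *Nrg1* was lower by -0.37 (edgeR FDR = 0.0031) and -0.33 (edgeR FDR = 0.0088). *Tgfa* was higher by 0.55 untreated (edgeR FDR = 0.00095) and 0.32 after IL-1β (edgeR FDR = 0.041), *Erbb3* by 1.27 (edgeR FDR = 0.0016) and 0.91 (edgeR FDR = 0.018), *Erbb2* by 0.35 untreated (edgeR FDR = 0.0057), and *Areg* by 1.65 after IL-1β (edgeR FDR = 0.023). Of these, *Areg* after IL-1β was lost without any 1 of 5 libraries (clone A1 replicates 1, 2 and 3 and clone A2 replicates 1 and 3, edgeR FDR between 0.051 and 0.088), and *Tgfa* after IL-1β without any 1 of clone A1 replicates 1, 2 and 3 and clone A2 replicates 2 and 3 (edgeR FDR between 0.053 and 0.26). *Erbb3* after IL-1β was lost without clone A1 replicate 1 (edgeR FDR = 0.051), clone A1 replicate 2 (edgeR FDR = 0.087) or clone A2 replicate 3 (edgeR FDR = 0.062), and *Nrg1* after IL-1β stood at the threshold without clone A2 replicate 1 (edgeR FDR = 0.05). With replicates 2 and 3 alone *Areg* (1.28, edgeR FDR = 0.14) and *Nrg1* (-0.27, edgeR FDR = 0.058) after IL-1β were lost. *Areg* after IL-1β was also lost with edgeR's newer quasi-likelihood method (edgeR FDR = 0.066), and *Tgfa* after IL-1β with unstranded counts (edgeR FDR = 0.07), no filter on low counts (edgeR FDR = 0.094) and the groups compared alone (edgeR FDR = 0.095). Whether these differences come from the clones' edits or from other differences between single-cell clones cannot be told apart with 1 line each.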

How the results depend on the processing

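Of 72 called values of the 9 genes in the 19 comparisons, 59 were called under every alternative run and 13 were lost under at least 1. Of 99 values not called, 25 were called under at least 1. Over all alternatives 2713 of 2857 values stayed on the same side of the threshold, and 104 of these were values called neither way that changed sign. Of the rest 63 were lost and 81 gained, and no called value reversed. With the replicate number as a block the number of genes called became 7 for clone A2 against Lkb1-/- MEFs after IL-1β, 8 for clone A1 against WT MEFs after IL-1β, 3 for the IL-1β response of Lkb1-/- MEFs and 2 for that of clone A2, while the number of all genes called went from 5755 to 8163, 9978 to 11580, 831 to 2601 and 995 to 3133. Of the 24 libraries 23 correlated best with their own number. Where every same-numbered pair exceeded 0.1, the block changed no call other than those given beside the results. Elsewhere, where libraries share only a number, it added *Egfr* in untreated Lkb1-/- MEFs and clone A2, *Areg* and *Hbegf* in untreated clone A1 and *Ereg*, *Egfr* and *Erbb3* in stimulated clone A1, all against WT MEFs, and *Ereg* between the untreated clones. Without the filter on low counts it became 2 for the IL-1β response of Lkb1-/- MEFs and 1 each for the difference in response between Lkb1-/- and WT MEFs and between clone A1 and Lkb1-/- MEFs, where *Ereg* was called (0.71, edgeR FDR = 5e-07, and -0.57, edgeR FDR = 0.00047), while all genes called went from 831 to 1428, 43 to 347 and 5 to 141. With replicates 2 and 3 alone, chosen after seeing the data, it became 8 for clone A1 against WT MEFs after IL-1β, 2 and 3 for the IL-1β responses of Lkb1-/- MEFs and clone A2, and 1 for the difference in response between Lkb1-/- and WT MEFs, while all genes called became 10394, 1534, 2556 and 147. The cause was not tested. Leaving out 1 library gave between 3 and 6 genes for untreated clone A2 against Lkb1-/- MEFs, between 2 and 4 for clone A2 against clone A1 after IL-1β, and between 1 and 2 for the response of clone A2, which was 2 without clone A2 untreated replicate 1. Upper quartile scaling moved the median of all genes against WT MEFs to between 0.121 and 0.136, and no called gene of the 9 reversed under it. It ended the call of *Ereg* in untreated clone A1 against WT MEFs and added *Egfr* in untreated clone A2 (0.38, edgeR FDR = 0.036) and stimulated clone A1 (0.49, edgeR FDR = 0.0095) against WT MEFs and *Erbb2* in stimulated clone A2 against Lkb1-/- MEFs (0.19, edgeR FDR = 0.03) and clone A1 (0.22, edgeR FDR = 0.014). Depth limits *Areg* and *Btc*, whose clone libraries held 4 to 38 reads.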
